A study of Mus musculus with 4 samples.

Results

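The genes described here are Cpt1a and Acaa2 of fat oxidation, Pex11a of the peroxisome, Gamt of creatine synthesis and Apoe of lipoprotein transport. They were measured in brown preadipocytes of mice with a conditional knockout (cKO) of EP3, a receptor for prostaglandin E2, and of control mice. These genes are 5 of the 45 to which a probe could be tied by its transcript accession, among 60691 array probes. They were chosen by name and not by their values, though with earlier results of these data known. Each has 1 probe, spotted 10 times on each array. Of these 50 spots, 9 carried an outlier flag on either array and were left out, 4 for Acaa2, 4 for Apoe and 1 for Cpt1a. All 5 genes were well above background in every signal, so none was lost to a filter on dim probes.

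The EP3 cKO pool came from Myf5CreEP3F/F mice, which carry floxed EP3 alleles and a Cre recombinase under Myf5, a gene of the shared muscle and brown fat lineage. The control pool came from EP3F/F mice, which carry the same floxed alleles and no Cre. The mice were 8 weeks old, and male where the labels of the samples give a sex. Each genotype is a single pool of approximately 30 mice, from which Lin-CD29+CD34+Sca1+ cells were sorted. Total RNA of each pool was split with an antibody against N6-methyladenosine (m6A) into bound RNA (IP, Cy5) and RNA left in the supernatant (Sup, Cy3), and both fractions of a genotype were hybridised to 1 array. The series thus has 4 samples on 2 arrays.

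Brown preadipocytes mature into cells that burn fatty acids in mitochondria to make heat. Fatty acyl groups enter the mitochondrion as carnitine esters, made by the carnitine palmitoyltransferase that Cpt1a encodes, and are shortened there by beta-oxidation, whose last step is carried out by thiolases such as the one encoded by Acaa2. Peroxisomes shorten very long chains and make ether lipids, and the membrane protein PEX11A takes part in their elongation and division. Creatine, whose final methylation step is catalysed by the GAMT enzyme, feeds a thermogenic cycle in brown and beige fat, and apolipoprotein E carries cholesterol and triglyceride between cells. The m6A mark on messenger RNA bears on its decay, splicing and translation.

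The m6A ratio is log2(IP/Sup) with each channel divided by its median over 43838 usable probes, so that 0 means equal scaled signal in both fractions. The RNA level is log2 of the sum of both scaled fractions, an approximation, since the fractions were labelled separately. Differences are cKO minus control. With 1 array per genotype no test was possible. The SD given is that between repeated spots, a technical spread. For a difference, each spot was matched to the spot at the same position of the other array. Variation by position that both arrays share is thus not in that SD. A difference counted as called at 2-fold, a log2 of 1. The scanner software's own error was close to 10% of the signal for each member spot. Over the 4 signals of an m6A difference this amounts to 0.29 (log2) for a single spot. The differences set beside it below are means over repeated spots, so 0.29 is not the error of those means. Median processed signals of usable probes lay between 411 and 474 over the 4 samples, and saturated spots numbered 0.

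Cpt1a RNA was lower in cKO in both fractions, while its m6A ratio differed less after median scaling. The median processed signal of its 9 usable spots was 1662 in cKO IP (1629 to 1740) and 2715 in control IP (2563 to 2912). In Sup it was 657 in cKO (584 to 744) and 943 in control (913 to 1058). In neither fraction did the spots of the 2 arrays overlap, before scaling or after it. After scaling, IP differed by -0.49 ± 0.07 and Sup by -0.36 ± 0.06, which gave an RNA level difference of -0.46 ± 0.06 (SD, n = 9 spots each), a 1.37-fold lower level. This places Cpt1a above 10.1% of all usable probes in the RNA level difference. Its m6A ratio was high on both arrays, 1.34 ± 0.12 in cKO and 1.47 ± 0.07 in control (SD, n = 9 spots each), and the spots of the 2 arrays overlapped in the ratio. As a share of the summed signal, IP held 71.6% ± 1.6 in cKO and 73.5% ± 0.88 in control. The m6A difference of -0.13 ± 0.07 was below 0 in 9 of 9 spots and smaller than the scanner's single-spot error of 0.29.

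**Figure D1:**
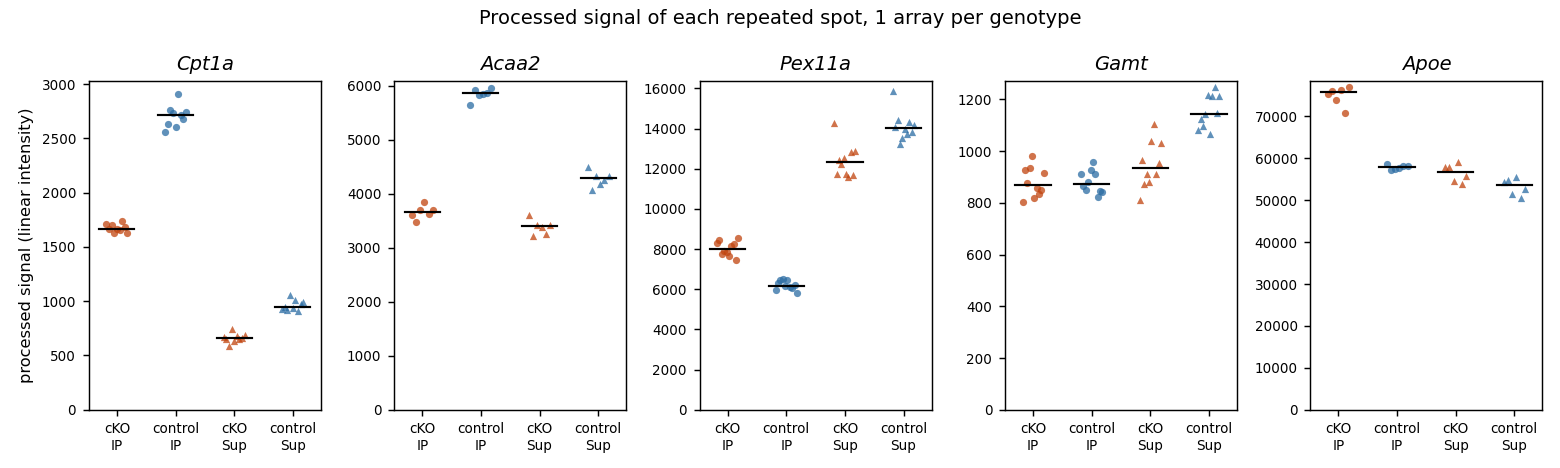
Processed signal (linear intensity, vertical axis from 0, own scale per gene) of each usable spot in cKO IP, control IP, cKO Sup and control Sup, left to right, with horizontal lines at the medians. Cpt1a and Acaa2 are lower in cKO IP than in control IP, with Cpt1a at medians of 1662 and 2715, while Pex11a and Apoe are higher there. Gamt differs mainly in Sup before scaling.

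Acaa2 encodes a mitochondrial 3-ketoacyl-CoA thiolase. Its RNA was also lower in cKO, after median scaling mainly in the bound fraction. The median signal of its 6 usable spots was 3668 in cKO IP (3486 to 3854), against 5860 in control IP (5640 to 5952), and 3402 in cKO Sup (3216 to 3599), against 4288 in control Sup (4075 to 4492). After scaling the IP spots of the arrays did not overlap and the Sup spots did. The scaled differences were -0.48 ± 0.05 in IP and -0.15 ± 0.03 in Sup (SD, n = 6 spots each). The m6A ratio was 0.11 ± 0.06 in cKO and 0.43 ± 0.07 in control, with no overlap of spots. The m6A difference of -0.32 ± 0.05 (SD, n = 6 spots) was below 0 in 6 of 6 spots. It was close in size to the scanner's single-spot error of 0.29. The RNA level difference was -0.33 ± 0.04, a 1.26-fold lower level. Cpt1a and Acaa2 thus had nearly the same IP difference, while the Sup difference of Acaa2 was nearer to 0. This split depended on the setting. Under normexp with loess and Aquantile the Sup difference was -0.27 for Acaa2 and -0.32 for Cpt1a. Scaled to the medians of ERCC spike-in probes, Acaa2 stood at 0.10 in IP and -0.21 in Sup.

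Ppara is the 1 other gene of a 37-gene fatty acid oxidation list that has a named probe. It encodes the lipid-sensing nuclear receptor PPAR-alpha, which in mouse liver activates Cpt1a, Acaa2 and Pex11a. Its probe was dim. Its median signal over 10 spots was 178 in cKO IP (137 to 218) and 390 in control IP (368 to 425), with no overlap. In Sup it was 42.6 in cKO (31.2 to 56.2) and 75.3 in control (51.6 to 98.0), with overlap, and 6 of 10 spots were well above background in cKO Sup. Its RNA level difference was -0.94 ± 0.15 (SD, n = 10 spots), just short of 2-fold, and 2.28% of usable probes lay lower. The 2 normexp settings, which shrink dim signals, gave -0.40 and -0.47. Its m6A ratio was 2.08 ± 0.28 in cKO and 2.35 ± 0.27 in control (SD, n = 10 spots each), a difference of -0.27 ± 0.30 that its spots did not separate from 0.

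Pex11a had the highest m6A difference of the 5 genes. Its median signal over 10 spots was 8021 in cKO IP (7460 to 8556), against 6173 in control IP (5817 to 6491), and 12319 in cKO Sup (11603 to 14293), against 14019 in control Sup (13210 to 15862). After median scaling the difference lay in the bound fraction, with 0.57 ± 0.11 in IP and 0.00 ± 0.06 in Sup (SD, n = 10 spots each). This split depended on the setting, with 0.39 in IP and -0.22 in Sup under loess and Aquantile, and 0.059 and -0.032 in the authors' deposited table. Its m6A ratio was low on both arrays, -0.63 ± 0.09 in cKO and -1.20 ± 0.11 in control, and the spots of the arrays did not overlap. IP held 39.2% ± 1.4 of the summed signal in cKO and 30.3% ± 1.5 in control. The m6A difference was 0.57 ± 0.10 (SD, n = 10 spots), or 1.48-fold, above 0 in 10 of 10 spots, with 88.0% of usable probes lower. Between single spots it ran from 0.40 to 0.70. The RNA level difference was smaller, 0.20 ± 0.06.

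**Figure D2:**
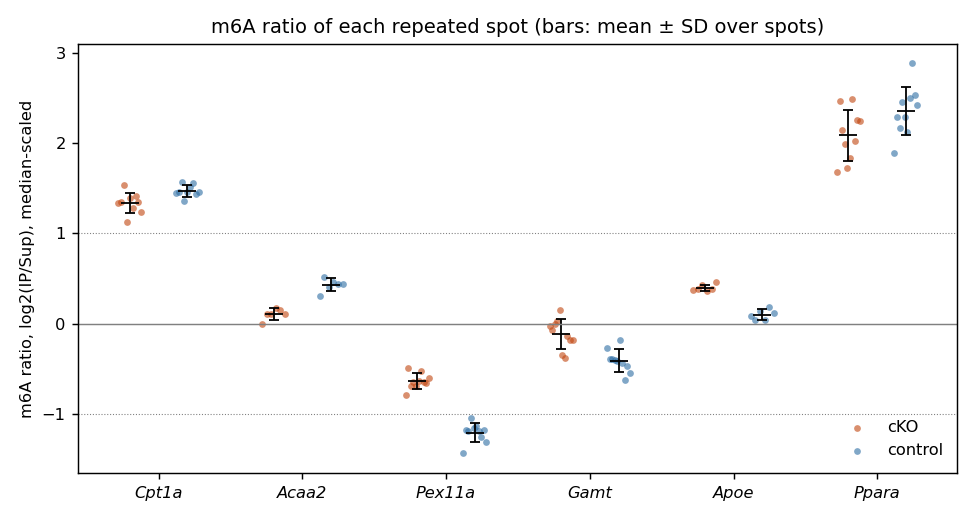
m6A ratio, log2(IP/Sup) after median scaling, of each usable spot of the 5 genes and Ppara, cKO left of control, with bars for the mean ± SD over spots and dotted lines at 2-fold. Acaa2 lies lower in cKO and Pex11a and Apoe higher, with spots that do not overlap, while Cpt1a, Gamt and Ppara overlap. Spots of the cytoskeletal gene Actb, not drawn, did not overlap either, at an m6A difference of 0.42 ± 0.06 (SD, n = 10 spots). How often spots of other probes do not overlap was not counted.

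Gamt encodes guanidinoacetate N-methyltransferase. Its RNA level was close to equal in the 2 genotypes after median scaling. The median signal of its 10 spots was 868 in cKO IP (804 to 982) and 873 in control IP (821 to 957). In Sup it was 933 in cKO (811 to 1105) and 1144 in control (1066 to 1249). After scaling the spots of the arrays overlapped in both fractions. The scaled differences were 0.20 ± 0.12 in IP and -0.10 ± 0.14 in Sup, and the RNA level difference was 0.03 ± 0.07 (SD, n = 10 spots each), beside a median of 0.05 over all probes. The m6A ratio was -0.11 ± 0.17 in cKO and -0.41 ± 0.13 in control. The m6A difference of 0.30 ± 0.22 (SD, n = 10 spots) was above 0 in 9 of 10 spots and ran from -0.18 to 0.56 between spots. It had the widest spot scatter of the 5 genes and was close in size to the scanner's single-spot error of 0.29. Under the 13 other settings the m6A difference kept its sign in 11 and the IP difference in 8.

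Apoe, the apolipoprotein E gene, was higher in cKO in both fractions. The median signal of its 6 usable spots was 75712 in cKO IP (70740 to 77106), against 57899 in control IP (57098 to 58563). In Sup it was 56842 in cKO (53767 to 59056) and 53578 in control (50494 to 55431), which overlapped as deposited and no longer after scaling. The scaled differences were 0.57 ± 0.05 in IP and 0.27 ± 0.0046 in Sup (SD, n = 6 spots each). The small SD in Sup arose because the Sup spots of both arrays varied together by position (Pearson r 0.997). Within an array the Sup spots had an SD of 0.054 in cKO and 0.055 in control. The RNA level difference was 0.44 ± 0.02, a 1.35-fold higher level, with 89.3% of usable probes lower. The m6A ratio was 0.40 ± 0.04 in cKO and 0.10 ± 0.06 in control, with no overlap. The m6A difference of 0.30 ± 0.05 (SD, n = 6 spots) was above 0 in 6 of 6 spots. It was close in size to the scanner's single-spot error of 0.29. That difference depended on how the signals were computed, since normexp gave -0.016 without dye normalisation and 0.56 with loess and Aquantile. Its IP difference was above 0 under both, at 0.37 and 0.41, while its Sup difference was 0.39 and -0.14.

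**Figure D3:**
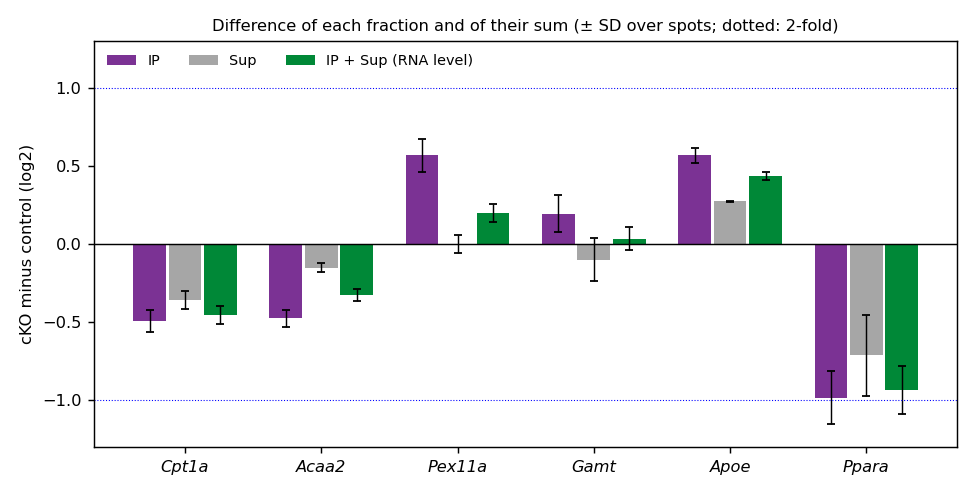
Difference between genotypes, cKO minus control (log2), of IP, of Sup and of their sum, as bars from 0 with the SD over spots, for the 5 genes and Ppara. In every gene the IP bar is farther from 0 than the Sup bar, and Pex11a has a Sup bar at 0.00. Over all usable probes, too, the difference spread more in IP (SD 0.58) than in Sup (SD 0.36).

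The 5 genes were also set against the whole array. With only 5 genes, counts of 0 at the shares given here do not set them apart from other probes. Of the 5, 0 reached 2-fold in the m6A ratio difference, which 5.28% of all usable probes did, and 0 in the RNA level difference, which 3.6% did. The counts were also 0 in IP alone, where 7.89% of probes reached 2-fold, and in Sup alone, where 1.62% did. At 1.5-fold the count was again 0 in the m6A difference, against 22.7% of probes, with Pex11a just short of it, and 0 in the RNA level difference, against 12.4%. It was 0 as well in IP, against 26.2%, and in Sup, against 7.67%. The median m6A difference was 0.30 over the 5 genes and 0.04 over all usable probes, with 3 of 5 genes and 54.0% of probes above 0. The median RNA level difference was 0.03 over the 5 genes and 0.05 over all probes, with 3 of 5 genes and 56.3% of probes above 0.

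**Figure D4:**
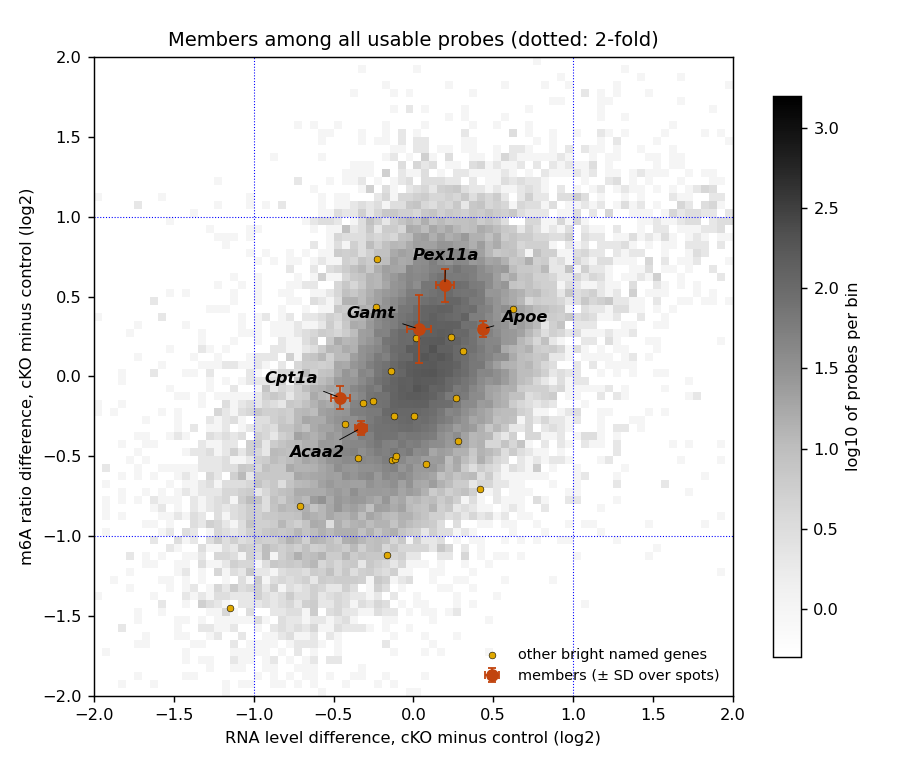
m6A ratio difference (vertical) against RNA level difference (horizontal), both cKO minus control in log2, with grey bins for all usable probes within 2 on either axis, orange points for other bright named genes and red points with spot SDs for the 5 genes. Cpt1a and Acaa2 lie below 0 on both axes, Apoe and Pex11a above 0 on both, and all 5 inside the dotted 2-fold lines.

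Within an array, Cpt1a was the only one of the 5 genes with IP at least 2-fold above Sup on both arrays, as 16.3% of usable probes were in cKO and 17.6% in control. Pex11a had IP at least 2-fold below Sup in control, as 17.1% of probes did, and fell short of that in cKO, where 14.3% did. A probe's ratio within 1 array also carries its own dye bias, and the order of genes by ratio is therefore a description. The order was Cpt1a, Apoe, Acaa2, Gamt and Pex11a in cKO, and Cpt1a, Acaa2, Apoe, Gamt and Pex11a in control. The ratios of the 5 genes spanned -0.63 to 1.34 in cKO and -1.20 to 1.47 in control. Over all probes the SD of the ratio was 1.03 in cKO and 1.13 in control, so that probes with low ratios tended to lie above 0 in the difference. Among the 4384 probes in the same of 10 equal bins of mean ratio as Pex11a, the median difference was 0.15 and the middle 80% ran from -0.44 to 0.68, which takes in the 0.57 of Pex11a. In the bin of Cpt1a the median was -0.05 and in that of Acaa2 and Apoe -0.03, and these genes also lay inside the middle 80% of their bin, as did Gamt.

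In IP, in Sup and in the m6A difference, the gap between 2 members does not depend on a scaling constant, because a constant moves every probe of a channel alike. The RNA level, a log of a sum, does not have this property. The IP difference of Pex11a exceeded that of Cpt1a by 1.06 ± 0.13 and that of Acaa2 by 1.05 ± 0.12 (combined spot SD). Apoe exceeded the same genes by 1.06 ± 0.085 and 1.05 ± 0.072. Bound RNA of Pex11a and Apoe thus stood about 2-fold higher in cKO relative to that of Cpt1a and Acaa2. These pairs set the highest IP differences among the members against the lowest, and were picked from these same values. Across processed signals, background-subtracted pixel medians and normexp with and without loess, these 4 gaps stayed between 0.88 and 1.06. Over all usable probes the IP difference had an SD of 0.58. Its 5th and 95th percentiles were -0.96 and 0.87, and the 4 genes lay between them. How often 2 probes lie this far apart was not tested. In the Sup difference the gaps were smaller, 0.36 for Pex11a over Cpt1a and 0.63 for Apoe over Cpt1a, and were 0.096 and 0.18 with loess and Aquantile. The Sup difference also had the smaller SD over all usable probes, 0.36.

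In the m6A difference the order from high to low was Pex11a, Apoe with Gamt, Cpt1a and Acaa2. Apoe and Gamt did not differ beyond their spots, with a gap of 0.00 ± 0.22, though Apoe stood 0.29 above Gamt with loess and Aquantile and differed from it by -0.16 with normexp alone. Pex11a stood 0.27 ± 0.24 above Gamt, a gap about as wide as its spot scatter, and 0.27 ± 0.12 above Apoe, which loess and Aquantile reduced to 0.057. Cpt1a stood 0.19 ± 0.085 above Acaa2, and 0.03 with loess and Aquantile. The gap from Pex11a to Acaa2 was the widest at 0.89 ± 0.11 and lay between 0.76 and 0.89 in the 4 ways of computing the signals. That from Pex11a to Cpt1a was 0.70 ± 0.13, with 0.59 to 0.81 in the same 4.

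The sign of several differences depended on the scaling. The authors' deposited table, which moves the median m6A difference of all probes to -0.44, put Acaa2 at -0.80, Cpt1a at -0.61, Gamt at -0.18, Apoe at -0.15 and Pex11a at 0.091. In that table the IP difference of Cpt1a was -1.01, past 2-fold, and that of Acaa2 was -0.99. Scaling each channel to 5 ERCC spike-in probes by their medians, which move it to 0.68, put Cpt1a at 0.50, Acaa2 at 0.31 and Pex11a at 1.21, past 2-fold. The m6A difference of Pex11a was above 0 in each of the 13 other settings. In the RNA level difference Cpt1a and Acaa2 were below 0 in each of the 13, between -1.23 and -0.08 and between -1.05 and -0.06. Apoe was above 0 in 12 of 13, and below it, at -0.24, when the arrays were scaled to Actb, a cytoskeletal gene whose own RNA level difference was 0.63 ± 0.06 (SD, n = 10 spots). Relative to the median of all probes in the same setting, the m6A difference ran from -0.41 to -0.15 for Cpt1a, from -0.58 to -0.26 for Acaa2, from 0.18 to 0.59 for Pex11a, from 0.068 to 0.30 for Gamt and from -0.091 to 0.53 for Apoe. A constant per channel cannot move this relative value, so the scalings do not bear on it. The ends of each range came from the settings that change background correction or dye normalisation. Under these, all but that of Apoe kept their side of the median.

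**Figure D5:**
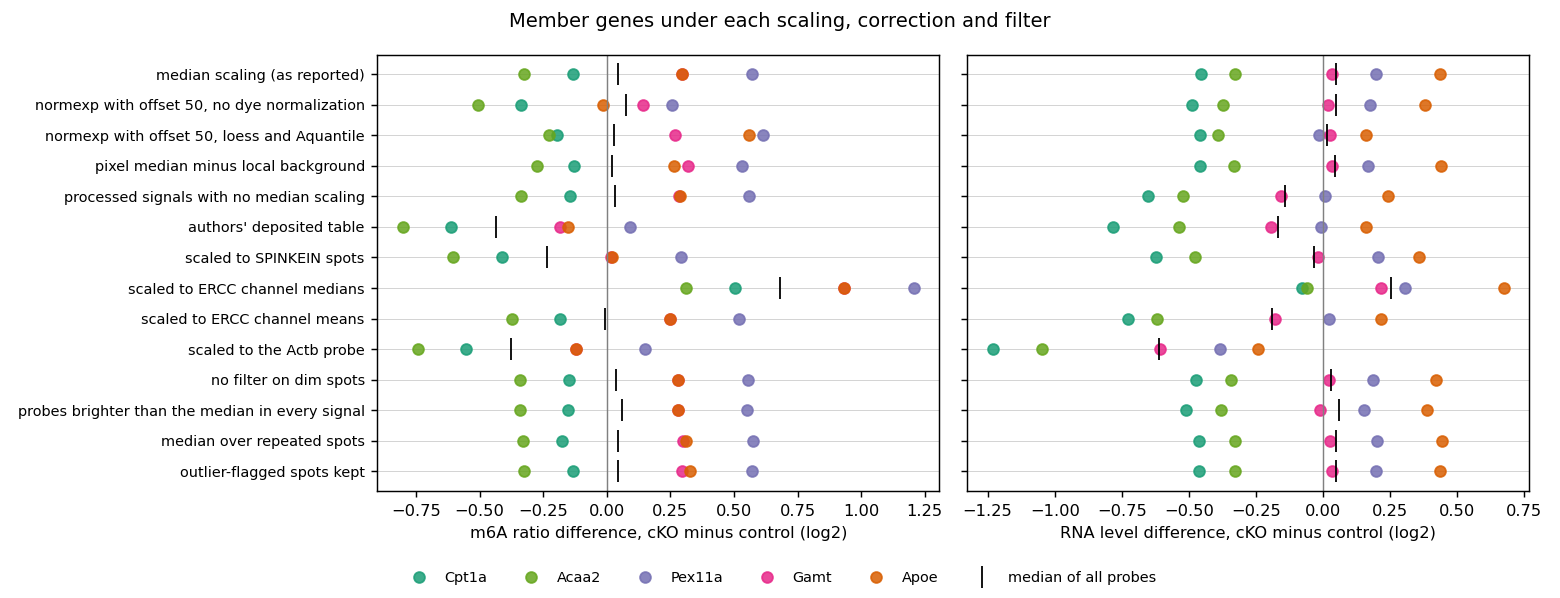
m6A ratio difference (left) and RNA level difference (right), cKO minus control in log2, of the 5 genes under the reported scaling and 13 others, with a black bar at the median of all probes. Most scalings move all genes and the bar together, so that Cpt1a and Acaa2 keep to the left of the bar and Pex11a to its right in the m6A difference.

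The named genes most like each member were taken by the distance between their pairs of m6A and RNA level differences (log2), over the 2 arrays. Nearest to both fat oxidation genes were Alkbh4 and the endosomal GTPase gene Rab5a. Rab5a lay 0.14 from Cpt1a, and Alkbh4 0.10 from Acaa2. The nearest to Gamt was the peroxiredoxin gene Prdx2 at 0.060, and the nearest to Apoe was the homeobox gene Lhx1 at 0.19. Pex11a had no gene as close, with Gamt at 0.32 and the olfactory receptor gene Olfr166 at 0.33, and Olfr166 was also the second nearest to Gamt (0.21) and to Apoe (0.20).

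Other genes of these pathways could not be followed. Of a 39-gene peroxisome list, an 8-gene creatine list and a 28-gene lipoprotein list, Pex11a, Gamt and Apoe were the 1 gene each with a named probe. Lists of 21 brown fat genes, 19 m6A enzymes and readers, 10 prostaglandin E2 genes and 8 markers of the sorted cells had 0. The loss of EP3 and the labelled cell type could therefore not be checked on their own genes. Of the markers of mature brown fat, blood, endothelium, muscle and nerve, Mbp of Schwann cells alone had a named probe, with an m6A difference of -0.67 ± 0.22 and an RNA level difference of 0.10 ± 0.15 (SD, n = 8 spots). Its m6A difference was thus farther from 0 than that of any of the 5 genes. The Mbp probe was dim, though, below the median usable probe in every signal, while the 5 genes lay above it. The part of Mbp in the results was not tested. In these pooled samples fewer cells of a type and less RNA per cell cannot be told apart, and the difference between the 2 pools cannot be told apart from that between the 2 arrays.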

How the data were processed

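The members and gene lists were chosen with earlier results of these data known. Per the file headers, the image software was Agilent Feature Extraction 11.0.1.1. Processed signals and raw pixel medians in the deposited files are given as intensity on a linear scale. Per the file headers, the processed signals have the background subtracted and the dyes normalised by linear and Lowess steps. This step balances IP against Sup within each array, so a shift of all transcripts between fractions cannot be read from these values. Both arrays shared a slide and a scan. In the authors' deposited table each log2 value equals the log2 of the processed signal minus 1 constant per sample. Its columns had medians of -3.85 for cKO IP, -3.36 for control IP, -3.00 for cKO Sup and -2.97 for control Sup, and the origin of these constants is not stated.

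Spots with an outlier flag were left out. A probe was usable when at least 0.5 of its spots were well above background in all 4 signals, which left 43838 of 60691 probes. Spots were averaged on the log2 scale. An accession stood beside 50 probes, of which 45 matched a symbol in a RefSeq table of another assembly than the array's, so no coordinates are given. All 5 members are named, and for each the 2 nearest named genes brighter than the median probe, with 1 named gene passed over that is not reported here. No p-value was computed, and the calculation was tested on simulated data. Normexp (offset 50), loess and Aquantile were run on pixel medians in limma 3.58.1, other steps in Python 3.11.15 with pandas 2.3.3.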

Additional observations from a re-analysis of the deposited data

How the results depend on the processing

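The direction of the 5 genes as a set depended on the scaling, as did the RNA level gaps between genes, and with 1 array per genotype no setting measures the spread between animals or pools. No paired analysis was possible because each group has 1 sample. The median m6A difference of the 5 genes, 0.30, was -0.016 with normexp alone, -0.18 with the authors' deposited table, -0.12 scaled to Actb, 0.018 scaled to the SPINKEIN spots and 0.93 scaled to the ERCC channel medians. Their median RNA level difference, 0.03, became -0.19 in the authors' deposited table, -0.16 for signals left unscaled, 0.22 and -0.18 with the ERCC medians and means, -0.61 scaled to Actb and -0.10 with Sup alone. The ERCC medians took 1 gene, Pex11a, past 2-fold in the m6A difference, and Actb took 2, Cpt1a and Acaa2, in the RNA level difference.

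Among single values, those that changed sign were, with normexp alone, Apoe's m6A difference (-0.016); with loess and Aquantile, Pex11a's RNA level (-0.015) and Apoe's Sup (-0.14); with no median scaling, Gamt's IP (-0.0021); with the authors' deposited table, the m6A difference of Gamt (-0.18) and Apoe (-0.15), Gamt's IP (-0.31) and Pex11a's RNA level (-0.0085); and with SPINKEIN spots and ERCC means, Gamt's IP (-0.012 and -0.073). The ERCC medians turned the IP of Cpt1a (0.080) and Acaa2 (0.10) and the m6A difference of Cpt1a (0.50), Acaa2 (0.31) and Ppara (0.37). Values reported within the spot SD of 0 also turned, the RNA level of Gamt in 6 of 13 settings (lowest -0.61 with Actb) and the Sup of Pex11a in 4 of 13 (highest 0.090 with normexp alone). Actb turned Gamt's m6A difference (-0.12) and IP (-0.67), Pex11a's IP (-0.29) and RNA level (-0.38), and Apoe's m6A difference (-0.12), IP (-0.29), Sup (-0.17) and RNA level (-0.24). Dye normalisation and signal correction differ in the normexp settings; for the scalings, the shift of all probes by 1 constant per channel accounts for the change by construction. Leaving out any 1 spot kept Pex11a's m6A difference between 0.56 and 0.59 and Cpt1a's RNA level difference between -0.47 and -0.44.

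Over all probes, the count at 2-fold in the m6A difference, 2315, was 1204 with normexp, 996 with loess and Aquantile, 5947 in the authors' deposited table, 3647 with SPINKEIN spots, 10606 with ERCC medians, 5171 with Actb, 6525 with no filter, 840 for bright probes alone and 9940 at 1.5-fold. In these, the share higher was 37.7% as reported, 13.7% with normexp, 49.6% with loess and Aquantile, 1.90% in the authors' deposited table, 7.05% with SPINKEIN spots, 98.8% with ERCC medians and 2.67% with Actb. In the RNA level, 1577 became 794 with normexp, 748 with loess and Aquantile, 2699 with ERCC means, 7722 with Actb, 2959 with no filter, 606 for bright probes alone and 5431 at 1.5-fold.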
